A study of Mus musculus with 12 samples.

Results

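Metallothionein and antioxidant genes were followed as a set of 10 genes in plasma cells of mouse bone marrow. 4 genes belong to the metal response (Mt1, Mt2, Slc30a1 and Mtf1) and 6 are linked to the transcription factor Nrf2 (Hmox1, Nqo1, Gclm, Gclc, Txnrd1 and Nfe2l2). They were taken by name from a table of 14219 genes, which held all 10. All 10 also passed a filter on low counts that kept 12704 genes. The names were chosen by gene family with earlier results in view, among them the difference in measured CPM between the populations at day 60, so the values in that contrast are given as a description with no test.

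The plasma cells came from C57BL/6 mice of the genotype BLTcre.mcl1fl/+ that carry a human CD4 reporter. Tamoxifen switched the reporter on, and bone marrow plasma cells were sorted 60 or 270 days later. Cells with human CD4 (human CD4+) are termed marked, and cells that lack it (human CD4-) are termed unmarked. The labels give neither the sort gates, the age of the animals, the promoter behind the Cre, nor whether marked cells lost the floxed allele. The 4 groups were marked cells at day 60, unmarked cells at day 60, marked cells at day 270 and unmarked cells at day 270, with 3 libraries each. All 4 share the tamoxifen treatment and the genotype with 1 floxed Mcl1 allele, and no group without them was analysed here. Within a day, each marked library shares a specimen number with 1 unmarked library. The labels do not state that specimens are separate animals, so p-values measure only the spread between these samples, which may be technical.

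Metallothioneins are small, cysteine-rich proteins that bind zinc, copper and cadmium and also react with oxidants. Their genes are switched on by Mtf1, a zinc-sensing transcription factor that binds metal response elements, and by glucocorticoids. Nrf2, the product of Nfe2l2, is held low by Keap1 until oxidants or electrophiles release it, and then binds antioxidant response elements of genes for heme breakdown, quinone reduction, glutathione synthesis and thioredoxin reduction. Plasma cells fold large amounts of disulfide-bonded antibody, a process that yields hydrogen peroxide in the endoplasmic reticulum.

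Mt1 and Mt2 lie side by side on chromosome 8 (GRCm38, GENCODE M21), Mt2 at chr8:94172664-94173568 and Mt1 at chr8:94179082-94180327, both on the plus strand with 3 exons. The end of Mt2 is 5513 bases from the start of Mt1. Their coding sequences are shown because the pair carries most of the values below and because similar sequences can exchange reads. Each has 183 bases before the stop codon, or 61 codons, of which 20 code for cysteine. Capitals mark the bases at which the pair differs, read from the GENCODE transcripts, 5′ to 3′.
Mt1: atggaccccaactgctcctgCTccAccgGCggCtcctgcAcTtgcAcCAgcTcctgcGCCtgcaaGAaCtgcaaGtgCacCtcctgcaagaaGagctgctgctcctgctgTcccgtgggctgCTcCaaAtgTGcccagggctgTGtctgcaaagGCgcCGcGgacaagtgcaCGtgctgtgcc
Mt2: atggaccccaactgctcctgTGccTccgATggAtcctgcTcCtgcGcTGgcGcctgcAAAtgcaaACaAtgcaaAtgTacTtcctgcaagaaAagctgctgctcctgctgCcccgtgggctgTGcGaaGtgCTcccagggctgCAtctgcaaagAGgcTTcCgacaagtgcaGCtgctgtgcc
The pair was equal at 145 of 183 bases (79.2%), and the longest run of equal bases was 20. How the authors' counting treated reads that match more than 1 gene was not stated in the labels.

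Promoter windows from RefSeq (GRCm38.p6; 250 bases before to 50 after the annotated start) were available for 8 of the 10 genes and not for Hmox1 or Gclc. The metal response element core was searched as TGCACNC or TGCGCNC on both strands. The windows of the metallothioneins and of Slc30a1 are shown with those matches in capitals, since these are the genes of the set that Mtf1 is known to switch on. Mt1 is chr8:94178839-94179138, Mt2 is chr8:94172368-94172667 and Slc30a1 is chr1:191906531-191906830, all on the plus strand.
Mt1: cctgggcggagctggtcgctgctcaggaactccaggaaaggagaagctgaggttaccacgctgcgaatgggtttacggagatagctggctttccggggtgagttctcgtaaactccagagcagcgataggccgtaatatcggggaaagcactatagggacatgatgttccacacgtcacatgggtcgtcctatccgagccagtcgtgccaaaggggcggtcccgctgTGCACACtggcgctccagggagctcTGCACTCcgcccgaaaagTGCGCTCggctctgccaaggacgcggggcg
Mt2: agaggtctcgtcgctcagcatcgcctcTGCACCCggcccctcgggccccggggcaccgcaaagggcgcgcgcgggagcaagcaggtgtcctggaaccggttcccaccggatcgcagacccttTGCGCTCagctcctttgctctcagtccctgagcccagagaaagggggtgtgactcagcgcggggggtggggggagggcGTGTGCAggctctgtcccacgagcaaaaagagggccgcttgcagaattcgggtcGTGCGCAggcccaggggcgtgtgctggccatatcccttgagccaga
Slc30a1: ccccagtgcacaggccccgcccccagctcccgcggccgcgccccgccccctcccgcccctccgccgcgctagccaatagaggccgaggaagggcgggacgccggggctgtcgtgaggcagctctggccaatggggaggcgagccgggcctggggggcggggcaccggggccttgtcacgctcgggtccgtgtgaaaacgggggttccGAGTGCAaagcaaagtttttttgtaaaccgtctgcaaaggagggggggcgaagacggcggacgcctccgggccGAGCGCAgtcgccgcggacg
Mt1 held 3 matches, Mt2 held 4 and Slc30a1 held 2. Of 32851 promoter windows of this length, 25.7% held at least 1 match, 7.11% at least 2, 1.97% at least 3 and 0.517% at least 4. Gclm held 3 matches, and Mtf1, Nqo1, Txnrd1 and Nfe2l2 held 0. The antioxidant response element core, searched as TGACNNNGC on both strands, matched once in Mt2, Slc30a1, Gclm, Nfe2l2 and 1 of the 3 Txnrd1 windows, and it was present in 12.4% of windows. In Gclm, the antioxidant match overlaps a metal response match. Mt1, Mtf1 and Nqo1 held no antioxidant match in these windows.

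Libraries held 7449468 to 15943544 reads in genes of the table. Levels are in CPM, reads per 1000000 reads of a library. The plasma cell marker Sdc1 was high in every group. It averaged 2010 ± 241 CPM in marked and 2008 ± 116 in unmarked cells at day 60. At day 270 it averaged 2084 ± 299 in marked and 2151 ± 185 in unmarked cells (SD, n = 3 each). Of 10 plasma cell markers, 9 had a negative log2 fold change in marked against unmarked cells at day 270. Their median was -0.26, against -0.22 over all genes, with 0 called by limma and 2 at an unadjusted p under 0.05. Jchain alone took from 7.90% of reads, in marked replicate 2 of day 270, to 31.3%, in marked replicate 1 of day 60. Mcl1, which all groups carry with 1 floxed allele, ranged from 342 to 513 CPM in the marked libraries and from 483 to 590 CPM in the unmarked ones. Marked replicate 2 of day 270 stood apart with 29.7% of its reads in 5 features of ribosomal RNA sequence, as did marked replicate 2 of day 60 with 11.9%, against 0.225% to 3.10% elsewhere. Marked replicates 2 and 3 of day 270 held reads for 11022 and 11301 genes, the other libraries for 12580 to 13506.

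The metallothioneins were the most abundant genes of the set. Mt1 averaged 564 CPM over the 12 libraries, more than 98.8% of all genes of the table, and Mt2 averaged 376 CPM, more than 98.1%. Together they took from 0.0279% of reads, in unmarked replicate 3 of day 60, to 0.145%, in marked replicate 2 of day 270. Per kilobase of the principal transcript (549 bases for Mt1, 511 for Mt2), the level of Mt1 was 1.13 to 1.66 times that of Mt2 in every library. For both genes the mean was highest in marked cells of day 270 and lowest in unmarked cells of day 60. Between them lay marked cells of day 60 and unmarked cells of day 270, whose means lay within 1 SD of each other for both genes.

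At day 60, Mt1 stood at 489.6, 631 and 595 CPM in marked cells, against 417, 301 and 161 CPM in unmarked cells (replicates 1, 2 and 3). Mt2 stood at 289, 383 and 488 CPM in marked cells, against 234, 174 and 118 CPM in unmarked cells. The populations did not overlap for either gene, which 4.46% of all genes showed in the same direction. The pair from specimen 1 was close, with marked over unmarked ratios of 1.17 for Mt1 and 1.24 for Mt2. The pair from specimen 3 was far apart, with ratios of 3.69 and 4.14. Log2 fold changes were 1.06 ± 0.24 for Mt1 and 1.16 ± 0.23 for Mt2 (SE), while the authors' deposited table gives 1.21 and 1.32.

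At day 270, Mt1 stood at 764, 864 and 804 CPM in marked cells, against 554, 646 and 542 CPM in unmarked cells. Mt2 stood at 548, 588 and 576 CPM in marked cells, against 343, 456 and 316 CPM in unmarked cells. Neither gene's populations overlapped, which 3.28% of all genes showed in the same direction, and marked cells were higher in 3 of 3 specimens for both. Markers of other cells differed as well: 16 of 16 macrophage markers had a positive log2 fold change (median 0.89, 0 called by limma, 1 with an unadjusted p under 0.05), and so had 8 of 8 erythroid markers (median 1.88, 0 called, 5 with an unadjusted p under 0.05). Of 10 B cell markers (median -0.46), Cd79a (log2 fold change -1.49, limma adjusted p = 0.00115) and Fcmr (-1.58, 0.0241) fell. The part of these cells in the levels of Mt1 and Mt2 was not tested. Across all genes, limma (trended prior, log2(CPM + 0.5), Benjamini-Hochberg adjustment) called 0.48% of genes and 0 of the 10. Mt2 had a log2 fold change of 0.64 ± 0.23 (SE; 1.55-fold, 95% interval 1.12 to 2.17) with an adjusted p of 0.234, and Mt1 of 0.48 ± 0.24 (1.40-fold, 0.986 to 1.98) with 0.376. The median over all genes was -0.22, so both stood above it. At an unadjusted p under 0.05, 1773 genes passed, among them Mt2 and Nqo1. edgeR and limma-voom also called 0 of the 10, while DESeq2 called 1, Mt2, with an adjusted p of 0.00931, among 256 of 12704 genes.

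**Figure D1:**
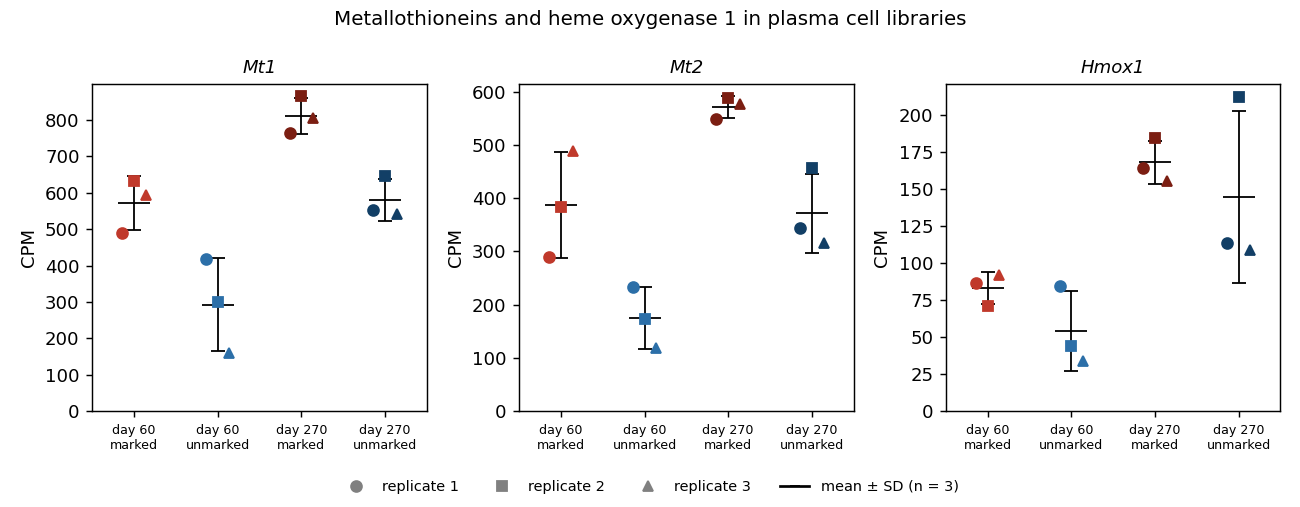
CPM of Mt1, Mt2 and Hmox1 in each of the 12 libraries (vertical axes, from 0) by day and population (horizontal axis). Symbols are replicates 1, 2 and 3, and bars give the mean ± SD of 3 libraries. Marked libraries lie above unmarked ones at each day for Mt1 and Mt2, and every day 270 library lies above every day 60 library for Hmox1.

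Hmox1 encodes heme oxygenase 1, which breaks heme down to biliverdin, iron and carbon monoxide. It stood at 86.6, 70.8 and 91.7 CPM in marked cells of day 60, against 84.9, 44.1 and 33.8 CPM in unmarked cells of day 60. At day 270 it stood at 164, 184 and 156 CPM in marked cells, against 114, 212 and 109 CPM in unmarked cells. The populations overlapped at both days, and unmarked replicate 2 of day 270 held the highest value of all 12 libraries. The days did not overlap in either population: the lowest day 270 library, at 109 CPM, was above the highest day 60 library, at 91.7 CPM. Of all genes, 6.46% lay higher at day 270 with no overlap in marked cells and 10.4% in unmarked cells. The share for both populations together was not taken. Between the populations at day 270 the log2 fold change was 0.28 ± 0.29 (SE, limma adjusted p = 0.694; 95% interval of the fold 0.796 to 1.85).

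With both populations averaged, Mt2 and Hmox1 rose by day 270. These were 2 of the 10 genes, and limma called 0.181% of all genes higher in this comparison. The fit had no term for specimen, so libraries that share a specimen number were treated as separate samples. The SEs and p-values below do not allow for that sharing. Hmox1 had a log2 fold change of 1.23 ± 0.20 (SE; 2.35-fold, 95% interval 1.75 to 3.17; adjusted p = 0.0153, rank 9 of 12704 by p). Mt2 had 0.86 ± 0.16 (1.81-fold, 1.43 to 2.29; adjusted p = 0.0343). Mt1 had 0.80 ± 0.17 (1.74-fold, 1.36 to 2.23) and narrowly missed the threshold with an adjusted p of 0.0617. The median over all genes was 0.07, while that of 16 macrophage markers was 1.42, and their part in these rises was not tested. In bulk samples, fewer cells of a type and less RNA per cell cannot be told apart. The Mt2 call was lost with edgeR (adjusted p = 0.0751) and with a pseudocount of 0.1 (0.0628).

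Both calls between the days were also lost when certain single libraries were left out, as were most calls over all genes in several of these fits. Hmox1 was not called without marked replicate 2 of day 60 (limma adjusted p = 0.0827), unmarked replicate 2 (0.0783) or 3 (0.0682) of day 60, or unmarked replicate 2 of day 270 (0.0904). In that order, these fits called 3, 6, 4 and 5 of 12704 genes, against 24 in the main fit. Mt2 was not called without marked replicate 1 (0.0956) or 2 (0.130) of day 60, or unmarked replicate 2 (0.0922) or 3 (0.123) of day 60. Mt2 was likewise not called without marked replicate 3 (0.0593) or unmarked replicate 1 (0.0654), 2 (0.160) or 3 (0.0571) of day 270. The fits without 1 library that lost Mt2 called 3 to 21 of 12704 genes. Without both marked replicates 2 and 3 of day 270, neither was called (0.183 for Mt2, 0.118 for Hmox1), with log2 fold changes of 0.83 and 1.22. That fit leaves 1 library in its group, which is assumed to vary like the other groups. Mt1 was called without unmarked replicate 1 of day 60 (0.00885) and with a pseudocount of 2 (0.0405), among 47 and 46 of 12704 genes. All these fits kept the positive sign, with log2 fold changes of 1.08 to 1.52 for Hmox1, 0.72 to 0.97 for Mt2 and 0.61 to 0.95 for Mt1 over 24 alternatives.

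Within marked cells alone, limma called 0 of the 10 genes between the days, and 0.0315% of all genes. Marked cells of day 270 lay above marked cells of day 60 with no overlap for Mt1, Mt2, Hmox1 and Nqo1, which 6.46% of all genes showed in that direction. The log2 fold change was 1.02 ± 0.29 for Hmox1 (adjusted p = 0.292), 0.59 ± 0.23 for Mt2 (0.418), 0.51 ± 0.24 for Mt1 (0.511) and 1.36 ± 0.76 for Nqo1 (0.588). The first 3 of these had an unadjusted p under 0.05, as did 1225 genes in all, and edgeR, DESeq2 and limma-voom called 0 of the 10. In the same comparison 16 of 16 macrophage markers had a positive log2 fold change, with a median of 1.67 and 9 of 16 at an unadjusted p under 0.05, and their part was not tested.

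Within unmarked cells alone, limma called 0 of the 10 genes and 0% of all genes, while 378 genes had an unadjusted p under 0.05. Mt1, Mt2 and Hmox1 were among those 378, with ranks of 11, 5 and 3 of 12704 by p. Their unmarked libraries of day 270 lay above those of day 60 with no overlap, which 10.4% of all genes showed in that direction. The unmarked day 60 libraries also belong to the day 60 contrast known when the set was chosen. These ranks and this separation are therefore not independent of that choice. The log2 fold change was 1.45 ± 0.29 for Hmox1 (adjusted p = 0.288), 1.12 ± 0.23 for Mt2 (0.288) and 1.09 ± 0.24 for Mt1 (0.310). Unmarked replicate 1 of day 60 had the levels closest to day 270 for all 3 genes. Without that library, limma called Hmox1 (0.0140), Mt1 (0.0346) and Mt2 (0.0400), among 8 of 12704 genes. DESeq2 called Mt2 (0.0158) and Hmox1 (0.0271), among 8 of 12704 genes, and edgeR and limma-voom called 0 of the 10. Of the 16 macrophage markers, 15 had a positive log2 fold change here, with a median of 1.14 and 5 at an unadjusted p under 0.05, and their part was not tested. Whether the change with time differed between the populations was not tested, since that test contains the day 60 contrast.

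The comparison with the widest separation was marked cells of day 270 against unmarked cells of day 60, in which population and time differ together and cannot be told apart. Macrophage markers had a median log2 fold change of 2.08 here and erythroid markers of 2.35, while the B cell markers Cd79a, Fcmr and Blk fell, and the part of these cells was not tested. Mt1, Mt2 and Hmox1 rose, 3 of the 10 genes, in a comparison that called 0.795% of all genes higher. The groups did not overlap for these 3 and for Nqo1, which 6.56% of all genes showed in that direction. The log2 fold change was 1.76 ± 0.23 for Mt2 (3.38-fold, 95% interval 2.42 to 4.71; limma adjusted p = 6.93e-04), 1.73 ± 0.29 for Hmox1 (3.31-fold, 2.18 to 5.05; 0.00405) and 1.57 ± 0.24 for Mt1 (2.97-fold, 2.09 to 4.21; 0.00216). The authors' deposited table of 265 genes for the same groups lists the same 3 genes of the set, with log2 fold changes of 1.76, 1.74 and 1.57 and FDR of 2.12e-05, 0.00189 and 4.46e-04. The unmarked day 60 libraries here are the ones in the contrast that drew attention to the set. The calls, adjusted p-values and separation in this comparison are therefore not independent of the choice of the set. The authors' table holds the same libraries, so its values are not independent of that choice either. When only these 6 libraries were fitted, Mt2 was called while Mt1 (adjusted p = 0.0907) and Hmox1 (0.0748) were not. Without marked replicates 2 and 3 of day 270 together, Mt1 (0.0669) and Hmox1 (0.0794) were not called. That fit sets 1 marked library, assumed to vary like the other groups, against 3 unmarked ones.

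**Figure D2:**
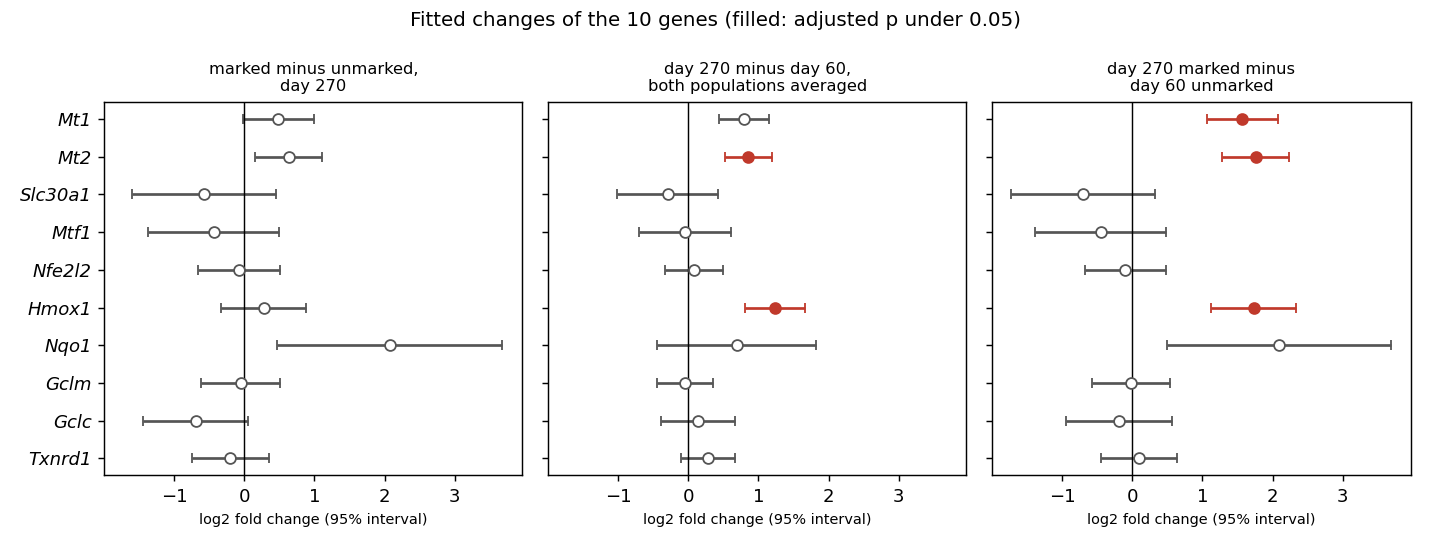
Log2 fold changes (horizontal axes) of the 10 genes (rows) from limma with 95% intervals, for marked minus unmarked cells at day 270, day 270 minus day 60 over both populations, and marked cells of day 270 minus unmarked cells of day 60. Filled points passed an adjusted p of 0.05: none of the 10 on the left, Mt2 and Hmox1 in the middle, and Mt1, Mt2 and Hmox1 on the right.

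Neither the zinc exporter Slc30a1 nor the regulators Mtf1 and Nfe2l2 were called in a tested comparison by limma, edgeR, DESeq2 or limma-voom, and none had an unadjusted limma p under 0.05. Slc30a1, which pumps zinc out of the cytosol, stood at 13.7, 20.2 and 12.2 CPM in marked and 18.8, 12.9 and 22.6 CPM in unmarked cells at day 60. At day 270 it stood at 22.5, 4.16 and 12.7 CPM in marked and 20.3, 19.7 and 10.5 CPM in unmarked cells. Its groups overlapped in every comparison, and the lowest value was in the marked library with the large ribosomal share. Marked cells of day 270 against unmarked cells of day 60 gave a log2 fold change of -0.69 ± 0.49 (SE, limma adjusted p = 0.557; 95% interval -1.72 to 0.33), and the interval of Mt2 in the same comparison was 1.28 to 2.24. Mtf1 averaged 13.2 ± 5.45 CPM in marked and 16.3 ± 0.685 in unmarked cells at day 60, and 13.2 ± 8.05 in marked and 17.2 ± 6.82 in unmarked cells at day 270 (SD, n = 3 each), with overlapping groups throughout. Nfe2l2 was at 27.5, 38.8 and 47.6 CPM in marked and 42.1, 42.8 and 51.0 CPM in unmarked cells at day 60. At day 270 it was at 43.8, 28.1 and 61.1 CPM in marked and 48.6, 45.4 and 39.9 CPM in unmarked cells, again with overlap, and marked cells were higher in only 1 of the 6 specimens.

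Among the enzymes linked to Nrf2, only Hmox1 was called by limma in a tested comparison. Gclm, the regulatory subunit of glutamate-cysteine ligase, was the steadiest of the set, at 29.5 to 53.6 CPM over the 12 libraries, a span of 1.82-fold. In marked cells of day 270 against unmarked cells of day 60 its log2 fold change was -0.02 ± 0.27 (SE, limma adjusted p = 0.987; 95% interval -0.58 to 0.54). Txnrd1, which reduces cytosolic thioredoxin, spanned 31.0 to 61.6 CPM, with a log2 fold change of 0.28 ± 0.18 between the days over both populations (adjusted p = 0.726; 95% interval -0.11 to 0.66).

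Gclc is the catalytic subunit of glutamate-cysteine ligase. At day 270 it was at 23.8, 23.0 and 9.52 CPM in marked cells, against 32.7, 30.9 and 22.6 CPM in unmarked cells, lower in the marked library of 3 of 3 specimens. The populations overlapped by a narrow margin, and the log2 fold change was -0.69 ± 0.36 (SE, limma adjusted p = 0.395; 95% interval -1.44 to 0.06), against a median of -0.22 over all genes. Without marked replicate 3 it was -0.27. At day 60 the means were 20.6 ± 3.64 CPM in marked and 20.3 ± 4.78 CPM in unmarked cells (SD, n = 3 each).

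Nqo1, a quinone reductase, was the lowest gene of the set. At day 60 it was at 2.91, 2.97 and 0.804 CPM in marked and 0.614, 0.687 and 2.06 CPM in unmarked cells. At day 270 it was at 10.1, 6.31 and 3.14 CPM in marked and 1.29, 3.46 and 0 CPM in unmarked cells, the last being 0 of 13425356 reads, which allows a level of up to 0.224 CPM (3 reads, counting error only). Marked cells at day 270 had a log2 fold change of 2.07 ± 0.76 over unmarked cells (SE, limma adjusted p = 0.244; 95% interval 0.47 to 3.67), resting on 237 reads in the 3 marked and 50 reads in the 3 unmarked libraries. Without unmarked replicate 3, which had no read, it was 1.27, and with pseudocounts of 0.1 and 2 it was 2.91 and 1.28. The groups overlapped, since marked replicate 3 lay below unmarked replicate 2.

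**Figure D3:**
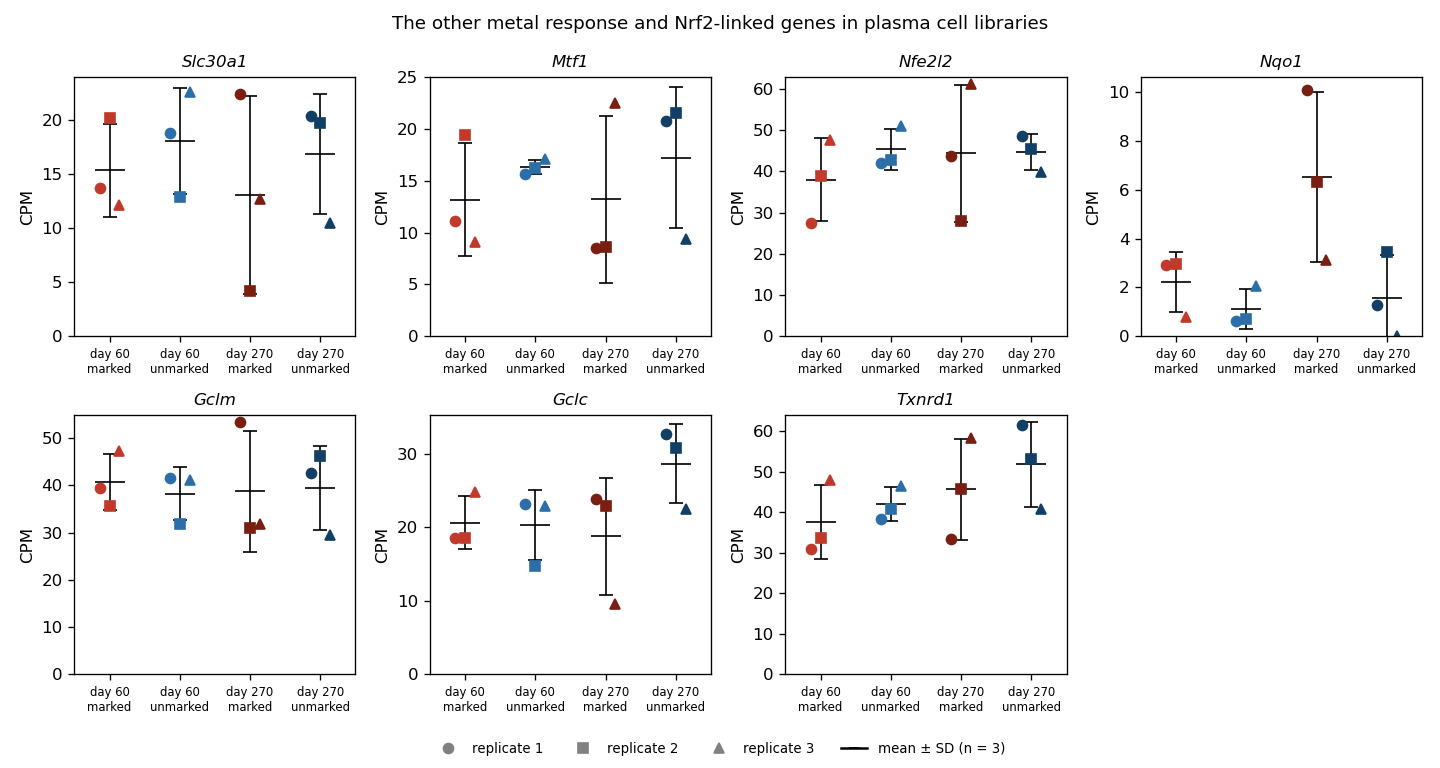
CPM of the other 7 genes in each of the 12 libraries (vertical axes, from 0) by day and population (horizontal axis). Symbols are replicates 1, 2 and 3, and bars give the mean ± SD of 3 libraries, the lower arm for Nqo1 in unmarked cells of day 270 being clipped at 0. Groups overlap in all 7 panels, except that Nqo1 was higher in marked cells of day 270 than in either group of day 60.

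The wider pathways were read from lists of genes outside the set, with the share of members called by limma. Of 23 tested genes for zinc and copper transport and other metallothioneins, 0 were called in any of the 5 tested comparisons, with 0 to 3 at an unadjusted p under 0.05. edgeR and DESeq2 each called 1 of them, the zinc transporter Slc30a4, in marked cells of day 270 against unmarked cells of day 60, where they called 187 and 573 of 12704 genes. The 4 most abundant were the zinc transporters Slc30a5, Slc30a7, Slc39a4 and Slc39a11, whose log2 fold changes in that comparison were -0.27, 0.09, 0.15 and -0.16 (limma adjusted p = 0.610 to 0.899). Of 12 regulators of Nrf2, 0 were called (1 or 2 at an unadjusted p under 0.05 in each comparison). DESeq2 called Sqstm1 between the days over both populations, among 142 of 12704 genes, and in marked cells of day 270 against unmarked cells of day 60. Sqstm1, the p62 receptor that draws Keap1 into autophagy, averaged 648 ± 66.7 CPM in marked and 620.3 ± 54.1 CPM in unmarked cells at day 270, against 493 ± 20.7 and 484 ± 32.4 CPM at day 60. Its log2 fold change between the days was 0.37 with a limma adjusted p of 0.184.

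Of 25 further Nrf2 targets, 2 rose in marked cells of day 270 against unmarked cells of day 60, and 0 were called by limma in the other tested comparisons (1 to 5 at an unadjusted p under 0.05). Over all genes 0.795% were called higher in that comparison. The median log2 fold change of the list was 0.29 in that comparison, and -0.11 over all genes. Me1, the cytosolic malic enzyme that supplies NADPH, averaged 9.04 ± 2.73 CPM in marked cells of day 270, against 0.871 ± 0.702 CPM in unmarked cells of day 60 (SD, n = 3 each; log2 fold change 2.87, limma adjusted p = 0.0192). Ftl1, the ferritin light chain that stores iron, averaged 560.4 ± 36.1 CPM against 354 ± 79.4 CPM in the same groups (log2 fold change 0.69, adjusted p = 0.0414). DESeq2 called 4 of the list there, adding Fth1 and Srxn1, edgeR 2 and limma-voom 1, where they called 573, 187 and 179 of 12704 genes. In marked against unmarked cells of day 270, DESeq2 called Fth1, the ferritin heavy chain, among 256 of 12704 genes. With limma its log2 fold change there was 0.26 (adjusted p = 0.485). Of 19 other thiol and peroxide enzymes, 0 were called by limma in any tested comparison (0 to 5 at an unadjusted p under 0.05). DESeq2 called 1, Cat, the gene for catalase, at day 270 between the populations, among 256 of 12704 genes. In marked cells of day 270 against unmarked cells of day 60, DESeq2 called Cat among 573 genes and edgeR among 187. Of 8 glucocorticoid-responsive genes, 0 were called by limma, edgeR, DESeq2 or limma-voom, with 0 to 4 at an unadjusted p under 0.05.

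Marker RNA of macrophages, erythroid cells and B cells differed in some of these comparisons. Of 10 neutrophil, 3 stromal and 5 T and NK cell markers tested, limma called none in a tested comparison. DESeq2 called 1 of these, Gzma, in marked cells of day 270 against unmarked cells of day 60, among 573 of 12704 genes. Macrophages that clear red cells are rich in Hmox1, ferritin and the iron exporter Slc40a1. All 16 macrophage markers listed were in the table. Their summed level was 221, 192 and 358 CPM in marked and 378, 150 and 129 CPM in unmarked cells at day 60, and 439, 557 and 1068 CPM in marked and 223, 490.2 and 465 CPM in unmarked cells at day 270. Between the days over both populations the list had a median log2 fold change of 1.42, with Axl called (1.85, limma adjusted p = 0.00703) and 11 of 16 at an unadjusted p under 0.05, against 24 called and 1084 at an unadjusted p under 0.05 among all 12704 genes. In marked cells of day 270 against unmarked cells of day 60, Axl and Vcam1 were called. Defining markers were low but present: Adgre1 averaged 4.02 CPM in marked and 5.77 CPM in unmarked cells at day 60, and 11.8 CPM in marked and 8.56 CPM in unmarked cells at day 270. In 4 of the 12 libraries, 1 to 3 of the 16 markers had no read.

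Single libraries show the macrophage sum beside the members. Among unmarked cells of day 60, replicate 1 had the highest sum, 378 CPM, and the highest Hmox1 (84.9 CPM), Mt1 (417 CPM) and Mt2 (234 CPM). Among unmarked cells of day 270, replicate 1, from another specimen, had the lowest sum, 223 CPM, with 114 CPM of Hmox1, 554 CPM of Mt1 and 343 CPM of Mt2, and replicate 2 had the highest sum and the highest level of all 3 genes. Marked replicate 3 of day 270 had the highest sum of all, 1068 CPM, with 156 CPM of Hmox1, the lowest of its group. The erythroid markers (9 of 11 in the table) summed to 108 to 350.5 CPM in marked and 39.5 to 69.0 CPM in unmarked cells at day 60, and to 185 to 802 CPM in marked and 30.2 to 169 CPM in unmarked cells at day 270. 4 globin genes of that list were called in marked cells of day 270 against unmarked cells of day 60. Neutrophil markers (11 of 11) ranged from 1.70 to 821 CPM in marked and 23.6 to 300.2 CPM in unmarked cells at day 60, and from 85.3 to 564 CPM in marked and 40.4 to 227 CPM in unmarked cells at day 270. The part of these cell types in the levels of Hmox1, Mt1 and Mt2 was not tested.

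**Figure D4:**
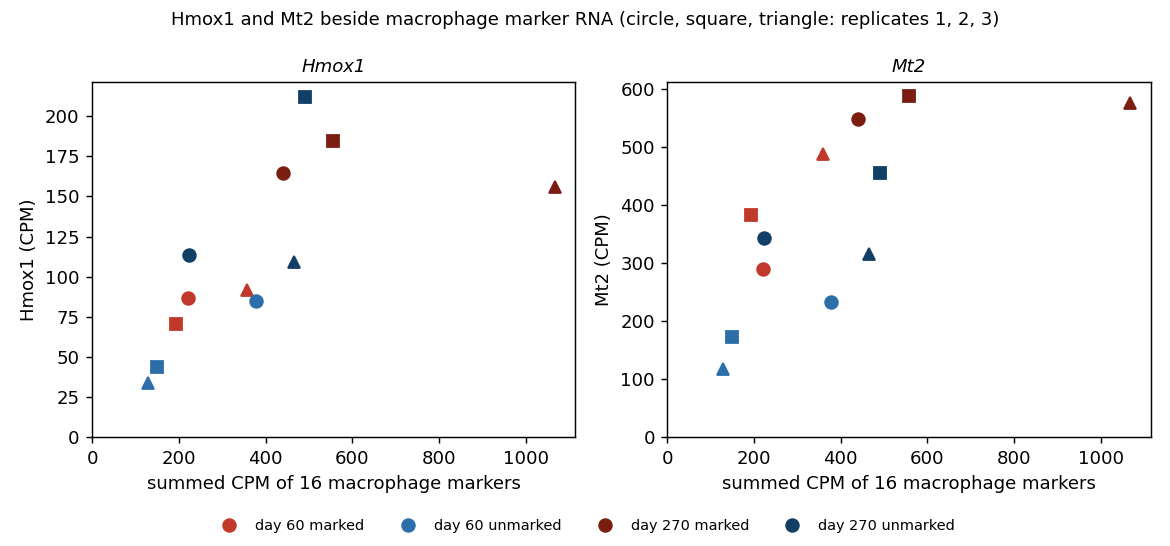
Hmox1 (left) and Mt2 (right) in CPM against the summed CPM of 16 macrophage markers in the 12 libraries, with both axes from 0. Colours are the 4 groups and symbols are replicates 1, 2 and 3. Libraries with low sums of 129 and 150 CPM have the lowest levels of both genes, and the library with the highest sum, 1068 CPM, has neither gene's highest level.

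Mt1 was the gene whose pattern was most like that of Mt2. Over the 12 libraries the correlation of log2(CPM + 0.5) was 0.972, the highest among 9231 genes with a mean of at least 5 CPM, and it is given as a description with no test, since libraries share depth and group. Hmox1 came at rank 25 with 0.884. For the other members the correlation was 0.16 for Txnrd1, 0.09 for Gclm, -0.01 for Gclc, -0.07 for Nfe2l2, -0.24 for Mtf1 and -0.35 for Slc30a1. Outside the set, the 5 most similar genes were Pdia5, a protein disulfide isomerase (0.970), Pmaip1, which encodes the BH3-only protein Noxa (0.942), Cpq (0.942), the NADPH oxidase Nox1 (0.937) and Dsel (0.929). Pdia5 averaged 8.91 CPM in marked and 2.30 CPM in unmarked cells at day 60, and 17.4 CPM in marked and 9.43 CPM in unmarked cells at day 270. Pmaip1 averaged 30.7 CPM in marked and 17.7 CPM in unmarked cells at day 60, and 47.9 CPM in marked and 30.3 CPM in unmarked cells at day 270.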

How the data were processed

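RNA-seq libraries of sorted plasma cells were analysed from tables the authors deposited. The labels' protocols name RNeasy Micro kits for RNA and a TruSeq RNA kit for libraries. The submitters' processing notes name GRCm38 and limma. The aligner, counter, annotation and strand setting were not stated there. A deposited table of counts holds 230 genes. Per the file headers, the other tables hold CPM per library, and the authors' log2 fold changes, p-value and FDR per gene.

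Whole reads were recovered from CPM with 1 total per library. Of 151341 values below 1000 reads, 100% came within 0.05 of a whole read, and 100% of count table cells were matched. limma 3.58.1 (R 4.3.3, trended prior) was fitted on log2(CPM + 0.5) with 12 libraries and 1 coefficient per group. filterByExpr of edgeR 4.0.16 (minimum count 10) kept 12704 genes. The threshold for a call was 0.05 on the p adjusted by Benjamini-Hochberg over those genes. Fold changes on this scale understate changes of low genes. The code was tested on simulated data.

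The members and lists were chosen with earlier results of these data known. All 10 members are named whatever their values. Of each list, the genes called and the 4 most abundant could be named, and others named were chosen after their values were seen. Alternatives were edgeR, DESeq2 1.42.0, limma-voom, TMM, other pseudocounts and filters, a block on specimen or replicate number, and leaving libraries out. Libraries of 1 specimen had residual correlations of -0.0109 to 0.115 (6 pairs, median 0.0556). Library numbers 5 to 8 are the first replicates of the 4 groups. Among the others, marking and library number cannot be told apart.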

Additional observations from a re-analysis of the deposited data

How the results depend on the processing

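Over 18 to 24 alternatives per comparison, 985 values of the 10 genes were refitted. Of these, 956 kept their side of the threshold, 21 called values were no longer called, 8 became called and 0 called values turned sign. Among uncalled values, 92 of 880 turned sign, none of them of Mt1, Mt2 or Hmox1. The number of members called moved in 4 of the 5 tested comparisons. DESeq2 called 1 member between the populations at day 270 and 2 between the days in unmarked cells, where limma called 0. Between the days over both populations, where limma called 2, there was 1 with edgeR, 1 with a pseudocount of 0.1, 0 without marked replicates 2 and 3 of day 270, and 1 without replicate 1 of every group, an alternative added after seeing the data. In marked cells of day 270 against unmarked cells of day 60, where limma called 3, there was 1 when only those libraries were fitted and 1 without marked replicates 2 and 3 of day 270. Leaving out 1 library gave 0 to 3 members called in unmarked cells between the days, and 0 to 3 over both populations. The cause of these moves was not tested.

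The block was specimen between the populations at day 270 and replicate number in the comparisons between days. A replicate number joins different specimens of the days, so those fits had no term for specimen. With these blocks, 0 members were called between the populations at day 270 and 0 between the days in either population. Over both populations 2 were called, and 3 in marked cells of day 270 against unmarked cells of day 60. The numbers were the same without the blocks. TMM scaling moved the median of all genes by 0.11 or 0.12 (log2) except in the last comparison. Leaving Jchain and ribosomal RNA features out of the totals, added after seeing the data, changed no member's call in the tested comparisons. At day 60 the log2 fold change ranged from 0.68 to 1.47 for Mt1 and from 0.91 to 1.59 for Mt2. A filter at a mean of 5 CPM removed Nqo1, which rests on few reads.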

Other observations

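The genes beside the metallothioneins on chromosome 8, chosen for their position after values were seen, were low, apart from Herpud1. Mt3, the third metallothionein at this locus and mainly known from brain, averaged 0.840 CPM in marked and 1.08 CPM in unmarked cells at day 60, and 0.329 CPM in marked and 0.501 CPM in unmarked cells at day 270. Bbs2, upstream of Mt3, averaged 14.0 CPM in marked and 18.4 CPM in unmarked cells at day 60, and 17.8 CPM in marked and 15.5 CPM in unmarked cells at day 270. Nup93, downstream of Mt1, averaged 16.2 CPM in marked and 19.4 CPM in unmarked cells at day 60, and 19.4 CPM in marked and 24.6 CPM in unmarked cells at day 270. Its fitted log2 fold change was -1.79 in marked against unmarked cells at day 270. In marked cells it was -1.12 for day 270 against day 60. The fit averages the logs of single libraries, whose spread these means do not show. Herpud1, a component of protein degradation at the endoplasmic reticulum, averaged 1832 CPM in marked and 1938 CPM in unmarked cells at day 60, and 1700.3 CPM in marked and 1916 CPM in unmarked cells at day 270.

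Nox1, Dsel and Cpq, named above for their likeness to Mt2, were lowest in unmarked cells of day 60 and highest in marked cells of day 270. Mt2 has the same lowest and highest groups, so this order follows from how these genes were chosen. Nox1 averaged 140.3 CPM in marked and 55.7 CPM in unmarked cells at day 60, and 213 CPM in marked and 99.6 CPM in unmarked cells at day 270. Dsel averaged 58.6 CPM in marked and 16.9 CPM in unmarked cells at day 60, and 82.6 CPM in marked and 45.6 CPM in unmarked cells at day 270. Cpq, a carboxypeptidase, averaged 172 CPM in marked and 97.6 CPM in unmarked cells at day 60, and 218 CPM in marked and 175 CPM in unmarked cells at day 270.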
